A study of Homo sapiens with 6 samples.

Results

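Iron handling was followed through 8 transcripts in HepG2 cells, a human liver tumour line. The transcripts were chosen by Ensembl transcript ID as those of TFRC, FTH1, FTL, SLC40A1, SLC11A2, ACO1, IREB2 and HFE, and all 8 were found among the 65527 transcript probe sets of the table. The gene names belong to that list of IDs, since the table itself holds IDs only. Each gene was thus read through the probe set of 1 transcript ID, and probe sets of other transcripts of these genes were not examined. The 3 treated samples were HepG2 cells kept with boric acid at 24 mM, a concentration that the labels call the IC50, for 24 hours, and the 3 control samples were HepG2 cells without treatment. Cells of both groups grew in low-glucose DMEM with serum, no vehicle is named for the controls, and each RNA sample was read on 1 Affymetrix whole-transcript array. Whether the 3 samples of a group were grown as separate cultures is not stated, and p-values therefore reflect only the spread among these samples, part of which may be technical.

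Cells can take up transferrin-bound iron through the transferrin receptor TFRC and move it across the endosomal membrane with the transporter SLC11A2 (DMT1). How far HepG2 cells rely on SLC11A2 for this step was not tested. Iron is stored in ferritin shells built from the heavy chain FTH1 and the light chain FTL. It is released through SLC40A1 (ferroportin), the known cellular iron exporter. The iron regulatory proteins ACO1 (IRP1) and IREB2 (IRP2) bind RNA hairpins called iron responsive elements when iron is scarce. Binding near the start of the ferritin and ferroportin messages blocks their translation, and binding in the tail of the TFRC message protects it from decay. HFE, a membrane protein related to MHC class I, binds TFRC and acts in hepatocytes upstream of the hormone hepcidin. An array measures RNA and not translation.

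Values are log2 RMA signals, the authors' normalized measure of hybridisation to a probe set, on which a step of 1 is a doubling. Array medians lay between 6.84 and 6.92, lower quartiles between 4.65 and 4.69, minima between 2.56 and 2.81 and maxima between 13.63 and 13.78. Because quantile normalization is part of RMA, every change is relative to the array as a whole. Signal also depends on probe affinity, so levels of different transcripts are not ranked. In such bulk RNA, fewer cells of a type and less RNA per cell cannot be told apart. The labels give no array batch, and markers of hepatocytes and of other cell types were not analysed here because the table's IDs could not be linked to gene names.

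Promoter stretches are shown for TFRC, SLC40A1 and HFE, the members that passed the test in the fit of all probe sets, from RefSeq on GRCh38.p14. They hold the 250 bases before the annotated start, 5′ to 3′ on the gene's strand. Capitals mark matches on either strand to CAGTGN, the loop letters of the iron responsive element, or ACGTG, the core of the hypoxia response element. The regions are chr3:196082091-196082340 (minus strand) for TFRC, chr2:189580787-189581036 (minus strand) for SLC40A1 and chr6:26087179-26087428 (plus strand) for HFE.
TFRC: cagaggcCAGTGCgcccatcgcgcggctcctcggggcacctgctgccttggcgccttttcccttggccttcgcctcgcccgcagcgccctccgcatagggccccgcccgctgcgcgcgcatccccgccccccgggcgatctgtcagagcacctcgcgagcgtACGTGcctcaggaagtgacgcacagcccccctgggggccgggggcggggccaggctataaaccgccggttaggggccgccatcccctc
SLC40A1: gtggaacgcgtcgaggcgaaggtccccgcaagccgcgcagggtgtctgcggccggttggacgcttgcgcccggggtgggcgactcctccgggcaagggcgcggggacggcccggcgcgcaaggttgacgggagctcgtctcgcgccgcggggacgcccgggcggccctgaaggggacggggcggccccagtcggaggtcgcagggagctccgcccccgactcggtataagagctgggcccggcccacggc
HFE: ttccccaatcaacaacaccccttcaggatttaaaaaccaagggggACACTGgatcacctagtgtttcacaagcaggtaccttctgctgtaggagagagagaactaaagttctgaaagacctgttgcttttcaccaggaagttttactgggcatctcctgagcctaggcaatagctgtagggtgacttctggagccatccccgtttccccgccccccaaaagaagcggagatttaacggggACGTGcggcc

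The TFRC stretch held ACGTG at bases -88 to -84 and CAGTGC at -243 to -238, and the HFE stretch held ACGTG at -10 to -6 and, on the opposite strand, a CAGTGN match at -205 to -200. The SLC40A1 window held no match to either motif, and none to TGACNNNGC, the core of the antioxidant response element. That window ends 50 bases after the start. The message beyond it was not searched, so whether it carries an iron responsive element is not shown here. An iron responsive element acts in RNA, so a CAGTGN match before the start is only a match of letters. For FTL, the 30 bases at chr19:48965329-48965358 (plus strand) are shown because they lie after the start, at the place in the message where ferritins carry this element, with the CAGTGN match at bases 39 to 44 in capitals.
FTL: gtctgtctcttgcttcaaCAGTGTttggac

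Windows of 300 bases (250 before and 50 after a start) were given for 7 of the 8 members, 11 windows in all, and 4 of these belonged to SLC11A2. Across all 35116 windows of this length, 52.5% held CAGTGN, 21.4% held ACGTG and 13.3% held TGACNNNGC on either strand. No member's window held TGACNNNGC. Besides the matches above, FTL held ACGTG on the opposite strand at -11 to -7, and 1 of the 2 IREB2 windows held CAGTGN on the opposite strand at -190 to -185. The other windows of SLC11A2, ACO1 and IREB2 held none of the 3 motifs. Matches at these background rates describe the letters and show no binding.

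**Figure D1:**
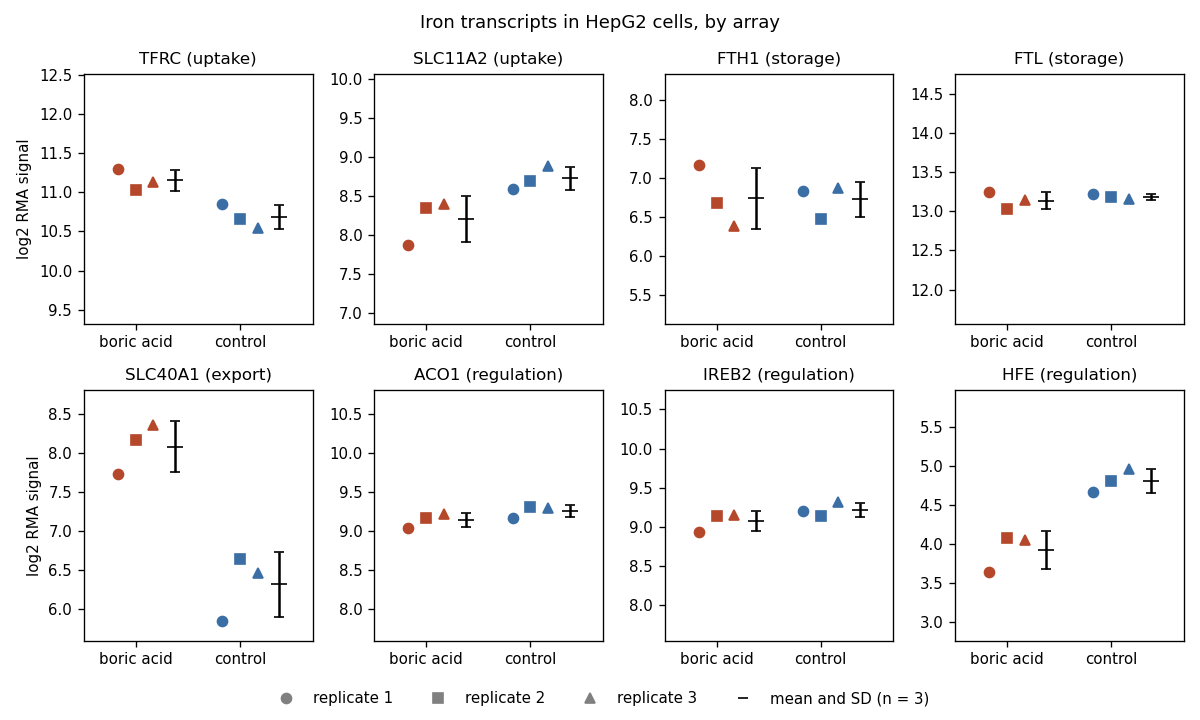
Log2 RMA signal of the 8 iron transcripts on each array, with boric acid left of control in each panel. Marker shape gives the replicate number, and the bar beside the points is the mean with its SD (n = 3). Each panel spans the same range of log2 signal around its own centre. The groups are apart for TFRC, SLC11A2, SLC40A1 and HFE, and the groups overlap for FTH1, FTL, ACO1 and IREB2.

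The comparison asked how iron transcripts differ between boric acid and control cells. SLC40A1, the exporter, was 3.40-fold higher in boric acid cells, and TFRC, the receptor, was 1.38-fold higher. SLC11A2, the endosomal transporter, was 1.44-fold lower, and HFE, whose signal was dim in both groups, was 1.85-fold lower. Each value is that of the probe set of 1 listed transcript and not of the whole gene. Whether its probes also match other transcripts was not examined. The ferritin chains FTH1 and FTL and the regulators ACO1 and IREB2 did not pass the test. Thus 2 members rose, 2 fell and 4 did not pass, by limma at a Benjamini-Hochberg adjusted p below 0.05, adjusted over every probe set in the fit.

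That count uses 2 fits, because 6 of the 8 members passed the signal filter (above the table median of 6.89 on at least 3 arrays), while FTH1 and HFE fell below it and were taken from the fit of all probe sets. SLC40A1 passed through its 3 boric acid arrays alone, as its control arrays lay below the median. With those control values it passed only because it was higher in boric acid. In the filtered fit 42.2% of 33710 probe sets were called, 23.0% higher and 19.2% lower. In the single fit of all 65527 probe sets, which needs no filter, 2 of the 8 members were called higher, against 12.4% of all probe sets, and 1 was called lower, against 11.7%. SLC11A2 missed the threshold there, with an adjusted p of 0.0530 by limma.

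The groups did not overlap for 4 of the 8 members, against 40.4% of all probe sets. Of these 4 members 2 were higher, against 20.8% of all probe sets, and 2 were lower, against 19.6%. The median log2 fold change of the 8 members was -0.08, and that of all probe sets was 0.003. The median size of the change, without sign, was 0.31 for the members and 0.19 for all probe sets. With 8 members on this background, the number of changes is described and not set apart from the rest of the array.

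**Figure D2:**
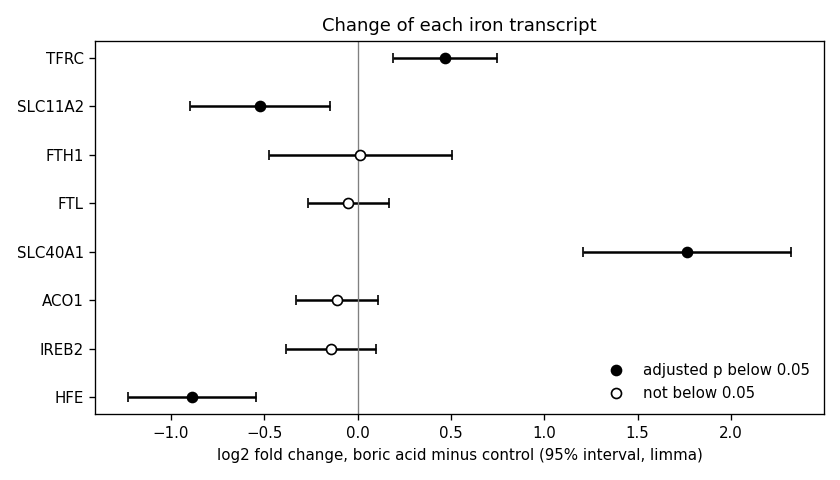
Log2 fold change of each iron transcript, boric acid minus control, with limma's 95% interval. Filled points passed an adjusted p of 0.05. The interval of SLC40A1 comes from the filtered fit, which it entered through its boric acid arrays alone. SLC40A1 at 1.76 lies farthest from 0, TFRC lies above 0, SLC11A2 and HFE lie below 0, and the intervals of the other 4 include 0.

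Among the uptake genes, TFRC (ENST00000360110.8) had log2 signals of 11.30, 11.03 and 11.13 on boric acid arrays 1 to 3, against 10.86, 10.66 and 10.54 on control arrays 1 to 3. The lowest boric acid array lay 0.18 above the highest control array. The mean was 11.15 ± 0.14 in boric acid cells and 10.69 ± 0.16 in control cells (SD, n = 3 each). The log2 fold change was 0.47 with a standard error of 0.12 (limma, adjusted p = 0.0177), and its 95% interval ran from 0.19 to 0.75. The rise was thus 1.38-fold, with an interval of 1.14 to 1.68. TFRC lost the call without control array 2 (log2 fold change 0.45, limma adjusted p = 0.0601) and without control array 3 (0.40, adjusted p = 0.0634).

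SLC11A2 (ENST00000262052.9), which can carry ferrous iron out of the endosome after TFRC has brought transferrin in, went the other way. Its signals were 7.87, 8.34 and 8.40 on the boric acid arrays, against 8.60, 8.70 and 8.89 on the control arrays. Boric acid array 1 was the lowest of the 6, and the highest boric acid array lay 0.19 below the lowest control array. The mean was 8.21 ± 0.29 in boric acid cells and 8.73 ± 0.15 in control cells (SD, n = 3 each), and SLC11A2 fell by 0.52 on the log2 scale with a standard error of 0.16 (limma, adjusted p = 0.0343). The 95% interval of the log2 fold change ran from -0.90 to -0.15. Besides the fit of all probe sets, leaving out control array 2 (-0.54, limma adjusted p = 0.0824) or control array 3 (-0.44, adjusted p = 0.112) ended the call. Without boric acid array 1 the log2 fold change was -0.36 and the call held (limma, adjusted p = 0.0408).

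Of the storage genes, FTL (ENST00000331825.10), the light chain of ferritin, had 13.24, 13.03 and 13.14 on the boric acid arrays, against 13.23, 13.18 and 13.16 on the control arrays. The boric acid arrays spanned the whole range of the control arrays. The mean was 13.14 ± 0.11 in boric acid cells and 13.19 ± 0.04 in control cells (SD, n = 3 each). The log2 fold change of -0.05 had a 95% interval of -0.27 to 0.17 (limma, adjusted p = 0.703). These signals lie near the array maxima, where differences may be compressed.

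FTH1 (ENST00000273550.11), the heavy chain, which oxidises iron for storage, had 7.16, 6.68 and 6.39 on the boric acid arrays, against 6.84, 6.47 and 6.88 on the control arrays. The boric acid values lay on both sides of the control values. The mean was 6.74 ± 0.39 in boric acid cells and 6.73 ± 0.22 in control cells (SD, n = 3 each). Its spread within boric acid was the largest of the 8 members. The log2 fold change was 0.01 with a standard error of 0.21 and a 95% interval of -0.48 to 0.50 (limma on all probe sets, adjusted p = 0.976). A change of up to 1.42-fold in the upward direction thus lies within that interval. FTH1 has many processed pseudogenes of near-identical sequence, and which of them its probes also match is not given in the sources used here. Its signal exceeded the table median of 6.89 on 1 of the 6 arrays, and how well this probe set reports FTH1 RNA was not tested.

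SLC40A1 (ENST00000261024.6), the exporter, had the largest change of the 8. Its signals were 7.72, 8.16 and 8.36 on the boric acid arrays, against 5.85, 6.64 and 6.47 on the control arrays. Every boric acid array was at least 1.09 above every control array. The mean was 8.08 ± 0.32 in boric acid cells and 6.32 ± 0.42 in control cells (SD, n = 3 each), so the log2 fold change was 1.76 (standard error 0.24, 95% interval 1.21 to 2.32), a rise of 3.40-fold. It passed the threshold in the fit of all probe sets, which needs no filter (limma, adjusted p = 0.00317). The filtered fit, which gave the standard error and interval, had a limma adjusted p of 0.00168. SLC40A1 entered that fit through its boric acid arrays alone, so the filtered value adds no support.

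No other member passed a 2-fold change, which 3.01% of filtered probe sets passed upwards and 7.45% in either direction. In the fit of all probe sets the corresponding shares were 1.86% and 4.64%. SLC40A1 changed by more, in size, than 99.3% of all probe sets. Leaving out 1 array at a time gave its lowest log2 fold change, 1.53, when control array 1 was omitted and its highest, 1.94, when boric acid array 1 was omitted, with adjusted p at most 0.0140 by limma in the fit of all probe sets, which does not depend on the filter.

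The 2 iron regulatory proteins had nearly level signals. ACO1 (ENST00000309951.7), an enzyme that works as cytosolic aconitase when it carries an iron-sulfur cluster and binds RNA without it, had 9.04, 9.17 and 9.21 on the boric acid arrays, against 9.17, 9.30 and 9.29 on the control arrays. The groups overlapped by 0.045. The log2 fold change was -0.11 with a standard error of 0.09 and a 95% interval of -0.33 to 0.11 (limma, adjusted p = 0.370).

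IREB2 (ENST00000258886.12), which is controlled mainly by breakdown of the protein, had 8.93, 9.14 and 9.15 on the boric acid arrays, against 9.20, 9.14 and 9.31 on the control arrays. The groups met at 9.15 in boric acid cells and 9.14 in control cells, an overlap of 0.0084. Its log2 fold change was -0.14 with a standard error of 0.10 and a 95% interval of -0.38 to 0.10 (limma, adjusted p = 0.295). Both intervals exclude a 2-fold change in either direction. Without boric acid array 1 the log2 fold changes were -0.061 for ACO1 and -0.072 for IREB2, and without control array 3 that of IREB2 was -0.095.

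HFE (ENST00000357618.9) had 3.63, 4.08 and 4.05 on the boric acid arrays, against 4.66, 4.80 and 4.96 on the control arrays. The gap between the groups was 0.58. The mean was 3.92 ± 0.25 in boric acid cells and 4.81 ± 0.15 in control cells (SD, n = 3 each), and HFE fell by 0.89 on the log2 scale with a standard error of 0.15 (limma on all probe sets, adjusted p = 0.0060). The 95% interval ran from -1.23 to -0.54. All 3 boric acid values were under the lower quartiles of the arrays (4.65 to 4.69), and the control values, from 4.66 to 4.96, were close to them. The signal is thus dim in both groups. Background was not measured here, and the size of the fall depends on how far the signal rises above background. HFE kept its call without each array in turn, with log2 fold changes of -0.96 to -0.74 and adjusted p at most 0.0261 by limma.

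**Figure D3:**
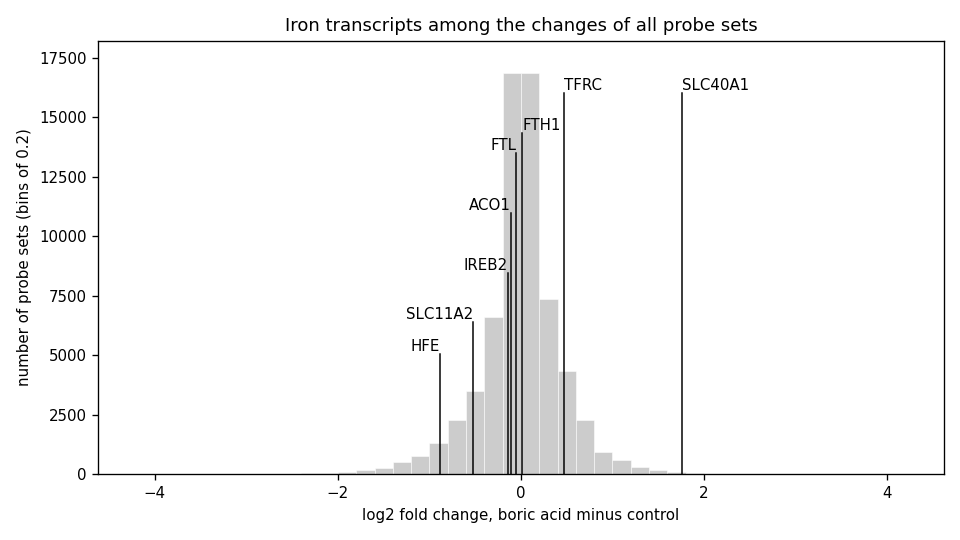
Number of probe sets by log2 fold change, boric acid minus control, in bins of 0.2 over all 65527 rows, with a line at each iron transcript (line heights only separate the labels). SLC40A1 at 1.76 stands in the sparse right tail and HFE at -0.89 in the left shoulder, and the other 6 lie between -0.52 and 0.47.

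Array 1 lay at the same end of both groups in several members. SLC40A1, SLC11A2, ACO1 and HFE were lowest on array 1 within each group, and TFRC and FTL were highest on array 1 within each group. Of these members, only SLC11A2 had arrays 2 and 3 in the same order in both groups. Within numbers 1 to 3, the difference of boric acid minus control was 1.88, 1.52 and 1.89 for SLC40A1. For HFE it was -1.02, -0.73 and -0.91. The groups of SLC40A1 and of HFE did not overlap, so any matching of the arrays would give these signs.

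The 2 uptake genes had opposite signs in every number, which any matching of the arrays would give, since neither gene's groups overlapped. The differences within numbers 1 to 3 were 0.44, 0.38 and 0.58 for TFRC, and -0.72, -0.36 and -0.49 for SLC11A2. FTH1 did not keep one sign, at 0.33, 0.20 and -0.49. FTL, at 0.02, -0.15 and -0.01, did not either. ACO1, at -0.13, -0.13 and -0.08, and IREB2, at -0.26, -0.00072 and -0.16, were below 0 in each number by small amounts.

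**Figure D4:**
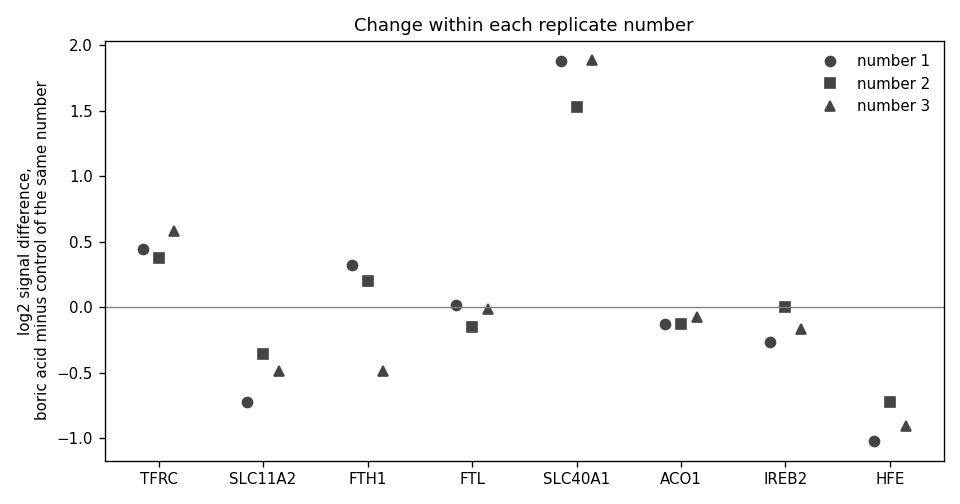
Log2 signal of the boric acid array minus that of the control array of the same replicate number, for each iron transcript. Marker shape gives the number. The 3 points of SLC40A1 lie between 1.52 and 1.89 and those of HFE between -1.02 and -0.73, and the points of FTH1 and FTL fall on both sides of 0.

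Pairs of members were compared through the difference of their log2 signals on each array, in which a shift common to all log2 values of an array cancels. For TFRC minus FTL, the receptor against the ferritin light chain, the change with boric acid was 0.52 with a standard error of 0.07 and a 95% interval of 0.31 to 0.72, and the groups did not overlap. The exact two-sided permutation test gave p = 0.1, the smallest that 3 against 3 arrays allow, and 0.4 after Benjamini-Hochberg adjustment over the 4 pairs compared. This test cannot place the difference below 0.05. The FTL signals lie near the array maxima, so part of the difference may be set by compression there, which was not tested, and after repeated quantile normalization the change was 0.35.

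For TFRC minus FTH1 the change was 0.45 with a standard error of 0.23, and the interval of -0.19 to 1.10 included 0 (exact permutation p = 0.2, adjusted 0.4). It was 0.29 without boric acid array 3. For FTH1 minus FTL, the 2 ferritin chains, it was 0.06 with an interval of -0.58 to 0.71 (exact permutation p = 0.9, adjusted 0.9), with FTH1 below the signal filter. For ACO1 minus IREB2, the 2 regulators, it was 0.03 with an interval of -0.15 to 0.21 (exact permutation p = 0.6, adjusted 0.8). The regulators' changes thus differed by at most 0.21 on the log2 scale within that interval, and the interval of the ferritin pair was the wider one.

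**Figure D5:**
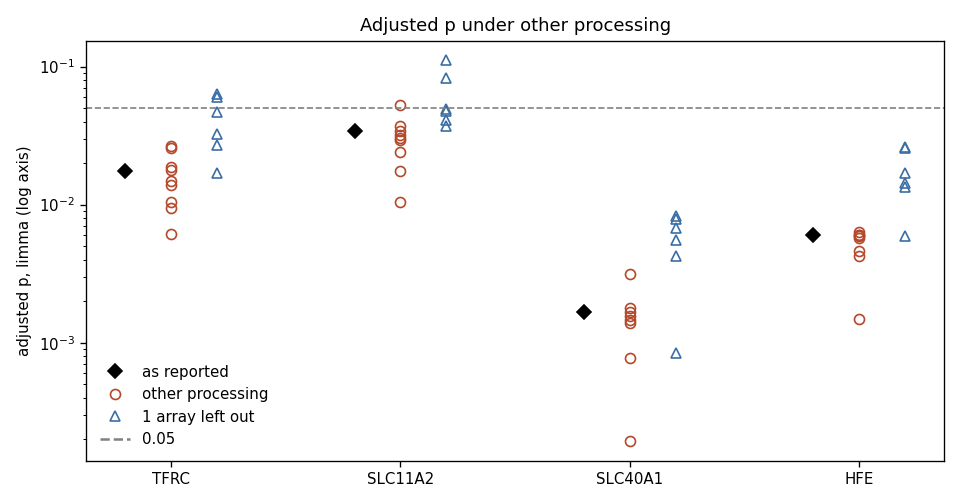
Adjusted p from limma, on a log axis, for the 4 members called, as reported (diamonds), under other processing (circles) and with 1 array left out (triangles). All points of SLC40A1 (whose fits, but for the one without a filter, use the filter it passed through its boric acid arrays) and HFE lie under the dashed line at 0.05, TFRC has 2 triangles above it, and SLC11A2 has 1 circle and 2 triangles above it.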

How the data were processed

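The deposited table holds 1 log2 value per probe set and array. The authors used RMA to obtain these log2 values, per the submitters' processing notes (no version named). RMA corrects background, equalises array distributions by quantiles and summarises probes. The log2 scale was read from the values. The sources used here name no probe set definitions, annotation release or genome build. None of the 65527 row IDs matched the reference table (0 matched), so a list of 42 other iron genes and 21 cell type markers could not be linked to rows and was not analysed here. No member's 6 values were repeated in another row. Probes shared only in part with other rows would not show in this and were not examined.

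Groups were compared with limma 3.58.1 (lmFit and eBayes, R 4.3.3), boric acid minus control, two-sided, with no covariate and Benjamini-Hochberg adjustment over all rows tested. Rows above the table median on at least 3 of the 6 arrays were tested (33710). Members below that filter were taken from the fit of all rows. Standard errors are limma's moderated ones, on 4 residual and 3.34 prior degrees of freedom, and the number of arrays limits precision. Differences between members used an exact permutation test (SciPy 1.17.1), with an interval from the pooled SD. The fit was tested on simulated data. All 8 members are described. Members and lists were chosen with earlier results of these data known.

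Over filtered rows, same-numbered arrays deviated together from their group means, with correlations of 0.477, 0.174 and 0.195 for numbers 1, 2 and 3. Each was above 0.1, the value required for pairing, which thus rests on the data and not the labels. The reported tests are unpaired, and the fit with the replicate number as a block is an alternative. The correlation of boric acid array 2 was higher with control array 3 (0.376), and that of boric acid array 3 with control array 2 (0.211). Only boric acid array 1 correlated best with the control array of its own number, so the pairing is not clean. Alternatives were 3 other scalings, 2 other filters, other variance settings, array weights, repeated rows counted once, the replicate block and each array left out. For SLC40A1 these were repeated in the fit of all rows, which was decided once the data had been seen.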

Additional observations from a re-analysis of the deposited data

How the results depend on the processing

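HFE kept its direction and its call in each alternative that tested it. SLC40A1 entered the filter through its boric acid arrays alone, so its alternatives were repeated in the fit of all rows, a choice made after seeing the data. There its log2 fold change was 1.75 to 1.81 (limma adjusted p at most 0.00336) under the other scalings, variance settings, weights, repeated rows counted once and the replicate block, and 1.53 to 1.94 (at most 0.0140) with each array left out. The stricter filter at the 75th percentile left out SLC40A1 (and FTH1 and HFE, as the filter on the median did), and called 8194 of 17458 rows, against 14239 of 33710. Without a filter SLC11A2 had an unchanged log2 fold change of -0.52 but an adjusted p of 0.0530 by limma, so that 1 member and not 2 was called lower. Its unadjusted p was 0.0131 there, against 0.0128 with the filter, so the adjustment over more rows moved the call. Among members that were not called, FTL turned to 0.11 after repeated quantile normalization and FTH1 to -0.094 with array weights, and FTH1 minus FTL turned to -0.062 after repeated quantile normalization; the cause was not tested. With each array left out in turn, the filter over all 6 arrays was kept, and FTH1 and HFE were again taken from the fit of all rows. Over these 2 fits 1 to 2 members were called higher and 1 to 2 lower. Of the 33710 filtered rows, 10166 to 14085 were called, and their shares by direction were not counted. HFE, from the fit of all rows, and SLC40A1, which entered the filter through its boric acid arrays alone, were called each time. The log2 fold changes then ran from 0.39 to 0.55 for TFRC, -0.62 to -0.36 for SLC11A2, -0.20 to 0.19 for FTH1, -0.10 to 0.0060 for FTL, -0.15 to -0.061 for ACO1 and -0.18 to -0.072 for IREB2. The values of ACO1 and IREB2 closest to 0 came without boric acid array 1, to which array weighting gave the lowest weight of the 6 (0.284), and with weights IREB2 was -0.077. With arrays centred on their medians ACO1 was -0.070. With an array left out, the differences between members ran from 0.29 to 0.59 for TFRC minus FTH1, from 0.46 to 0.58 for TFRC minus FTL, from -0.093 to 0.24 for FTH1 minus FTL and from -0.00011 to 0.093 for ACO1 minus IREB2. The replicate block changed no member's call. It gave an adjusted p of 0.0105 for SLC11A2 and 0.00953 for TFRC by limma, with log2 fold changes of -0.52 and 0.47 that a block cannot alter in this balanced design, and it called 16208 rows. Dim signal limits HFE, whose level above background is unknown. FTH1 is limited by its spread and by a signal that exceeded the table median on 1 of the 6 arrays.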
